A study of Mus musculus with 16 samples.

Results

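The AP-1 and Egr immediate early genes described here are Fos, Fosb, Fosl2, Jun, Junb, Jund, Atf3, Egr1, Egr2 and Egr3. They were chosen by name, and each was 1 row of the deposited read counts, so that all 10 of 10 were found among 55385 gene rows. All 10 passed the filter on low counts, which 14513 rows passed.

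RNA was sequenced from cells sorted from the brain with magnetic beads against CD11b, an integrin subunit on microglia and on myeloid cells in general, with the meninges and choroid plexus taken out first. Before the sort the brains were digested warm with papain and DNase and triturated. The paper's methods, given in brief, name no inhibitor of transcription for this step. How much of each gene's level arose during it was not tested. All mice were female and labelled as 20 weeks old, and each genotype gave 4 libraries. WT mice carried neither the transgenes nor the Card9 deletion, Card9-/- mice carried a germline deletion of Card9, 5xFAD mice carried human transgenes with familial Alzheimer's disease mutations and intact Card9, and Card9-/-5xFAD mice carried both. The deletion is present in every cell of the mouse, so these comparisons are not specific to microglia. Reads counted on genes ran from 2970148 to 19333325 per library.

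Immediate early genes are transcribed within minutes of a stimulus without the need for new protein. Fos and Jun proteins pair through leucine zippers to form AP-1, which binds the TGANTCA element, while Atf3 belongs to the related ATF/CREB family. Egr proteins are zinc finger factors that bind a GC-rich element, and in microglia these genes respond to activating signals and also to tissue dissociation. MAP kinases, the serum response factor with its Elk partners and CREB act on their promoters.

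The promoter windows of 2 pairs of genes with a high correlation across libraries (Jun with Junb, and Fosb with Fosl2) are shown with that of Fos, the founding member. Each holds the 250 bases before the RefSeq transcription start on GRCm38.p6, written 5′ to 3′ on the strand of the gene. Capitals mark TGACG (the half-site of the CREB element, or its reverse complement CGTCA), the Egr element GCGNGGGCG, the octamer TGACATCA, and TATAAA close to the start.
Fos (chr12:85473640-85473889, plus strand): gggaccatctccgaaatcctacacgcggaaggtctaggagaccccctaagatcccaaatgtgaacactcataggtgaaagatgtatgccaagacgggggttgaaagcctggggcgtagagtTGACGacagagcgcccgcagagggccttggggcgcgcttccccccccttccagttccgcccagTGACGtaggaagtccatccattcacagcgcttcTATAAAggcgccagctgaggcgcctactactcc
Jun (chr4:95052223-95052472, minus strand): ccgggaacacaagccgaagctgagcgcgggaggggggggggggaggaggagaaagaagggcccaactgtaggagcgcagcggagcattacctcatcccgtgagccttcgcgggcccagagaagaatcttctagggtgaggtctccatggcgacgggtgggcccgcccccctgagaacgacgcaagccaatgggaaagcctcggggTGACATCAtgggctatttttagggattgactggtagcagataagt
Junb (chr8:84978749-84978998, minus strand): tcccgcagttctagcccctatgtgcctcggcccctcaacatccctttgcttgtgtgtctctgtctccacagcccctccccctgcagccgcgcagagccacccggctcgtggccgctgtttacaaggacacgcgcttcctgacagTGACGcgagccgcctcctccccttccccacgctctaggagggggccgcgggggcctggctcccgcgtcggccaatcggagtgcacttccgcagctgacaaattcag
Fosb (chr7:19310046-19310295, minus strand): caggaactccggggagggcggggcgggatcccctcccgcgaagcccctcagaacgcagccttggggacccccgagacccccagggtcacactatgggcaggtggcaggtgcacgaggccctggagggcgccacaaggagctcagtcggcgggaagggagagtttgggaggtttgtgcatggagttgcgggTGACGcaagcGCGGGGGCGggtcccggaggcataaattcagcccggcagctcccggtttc
Fosl2 (chr5:32136222-32136471, plus strand): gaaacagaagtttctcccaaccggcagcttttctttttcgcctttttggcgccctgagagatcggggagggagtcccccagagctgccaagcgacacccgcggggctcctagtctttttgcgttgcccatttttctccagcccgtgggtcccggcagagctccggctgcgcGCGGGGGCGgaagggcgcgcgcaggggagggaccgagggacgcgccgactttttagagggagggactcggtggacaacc
The search covered both strands, and the half-site also lies inside the full CREB element TGACGTCA. Egr1 and Egr3 were not searched, and RefSeq windows were used for the other 8 of the 10 genes. TGACG was in a window of 5 of them (Fos, Fosb, Junb, Egr2 and Atf3), against 17.8% of all 32851 promoter windows. Egr2 had 5 windows, 3 of them with TGACG, and each of the other genes had 1 window. The count of genes is therefore not a share of windows, and Egr2 had more windows in which a match could be found. The Egr element was in the windows of Fosb and Fosl2, against 4.7% of all windows, and the octamer TGACATCA was in that of Jun, against 2.93%. TATAAA was in that of Fos, against 12.4% of all windows. Among the 8 genes searched, the CArG box, the element of the serum response factor, was found only for Egr2. It was in 4 of the 5 listed windows of Egr2, against 1.47% of all windows. Neither TGACGTCA, held by 1.55% of all windows, nor TGANTCA, held by 6.75%, was in any window of these 8 genes. The octamer was added to the search after the Jun window had been seen. Some RefSeq starts differ from the gene starts of the GENCODE M21 annotation. The Jund window (chr8:70697489-70697738) ends upstream of the GENCODE start at chr8:70698949. The windows of Fosl2 and Atf3 (chr1:191183334-191183583), and some of those of Egr2, lie inside the GENCODE gene. Elements next to those other starts, or further upstream than these windows, were not searched. A window without a match therefore does not show that the gene lacks the element.

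Levels were compared between genes as CPM (read counts scaled to a common library size) per kilobase of exon, taken as the median of the 16 libraries. Jun was first with 561 CPM per kilobase, followed by Fos with 476, Junb with 370.5, Atf3 with 230.5 and Egr1 with 106. Jund had 19.7, Egr2 10.2, Fosb 3.63, Fosl2 0.973 and Egr3 0.507 CPM per kilobase. The order of neighbours held in every library only for Egr1 above Jund and for Fosb above Fosl2, each in 16 of 16. Jun was above Fos in 12 of 16 libraries and Junb above Atf3 in 11 of 16, so the leading genes overlapped. Egr3 had between 6 and 59 counts per library, so that its values rest on few reads.

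Some of these genes share bases with others in the GENCODE M21 annotation of GRCm38. Jund (chr8:70698949-70700616) has 1 exon, and 52.6% of its exon bases lie inside the antisense gene Gm11175, which had 0 counts in all 16 libraries. Jun (chr4:95049034-95052222) shares 7.28% of its exon bases with Junos and Junb (chr8:84974484-84978718) shares 7.52% with Prdx2, both on the other strand. The strand setting of the counting is not given in the sources used here, so the values of these 3 genes carry that uncertainty.

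The libraries expressed the defining markers of microglia, the least abundant of the 9 listed reaching 429.8 CPM. The 8 neuron markers had highest values of 0.327 CPM (Slc17a7) to 7.52 CPM (Rbfox3). Other markers were at levels like those of the microglia markers, with 103 to 593 CPM for Mbp of oligodendrocytes, 139 to 311 CPM for Slc1a3 of astrocytes and 96.8 to 1070.5 CPM for Pf4 of border-associated macrophages. The summed CPM of the 9 microglia markers was lowest in WT replicate 1 (14297), Card9-/- replicate 4 (17064), 5xFAD replicate 1 (15252) and Card9-/-5xFAD replicate 4 (16369.8), and the next lowest libraries of these genotypes had 26351, 18564, 24194 and 19418. The same 4 libraries had the highest sums of their genotypes for 6 of the 8 other marker lists, those of neutrophils (3584, 6259, 2092 and 5956 CPM), border-associated macrophages (1606, 1723, 801 and 1680 CPM), monocytes, astrocytes, endothelial cells, and T and NK cells, and in 3 of them the oligodendrocyte marker sum was the lowest of its genotype. None of the 6 neutrophil markers was at 0 in all libraries. In bulk RNA, fewer cells of a type and less RNA per cell cannot be told apart. Card9 counts overlapped between all genotypes (13.6 to 51.3 CPM in WT, 16.7 to 34.8 in Card9-/-, 15.6 to 33.5 in 5xFAD and 9.73 to 33.7 in Card9-/-5xFAD). Gene totals do not resolve exons, so the genotype of each library rests on its label.

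**Figure D1:**
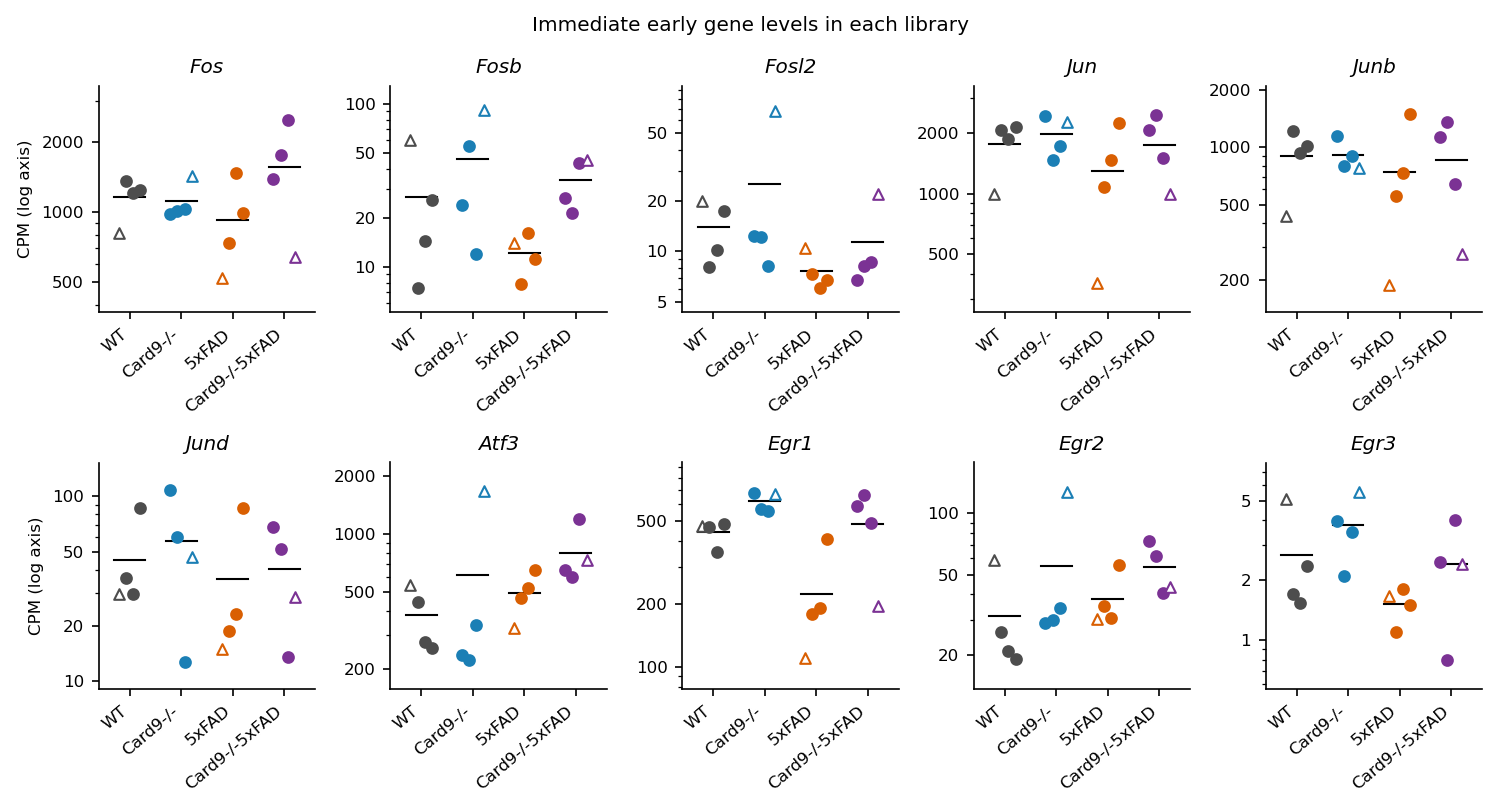
CPM of each gene on a log axis in the 4 genotypes, with 1 point per library and a line at the mean. Open triangles mark the library of lowest microglia marker sum in each genotype, which lies at the bottom of Junb in each of the 4 genotypes and at the top of Fosl2 in each.

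The transgene comparisons ask how the genes differ between mice with and without the 5xFAD transgenes, first with Card9 intact. In 5xFAD against WT, none of the 10 genes passed an FDR of 0.1 in edgeR's quasi-likelihood test on all 16 libraries, where 2.09% of all genes tested did, and 1 gene, Egr1, had an unadjusted p under 0.05, as 10.8% of all genes did. DESeq2 on all libraries called 0 of the 10 and 565 of all genes. The log2 fold change was below 0 for 8 of 10 genes, against 61.1% of all genes, with a median of -0.40 against -0.15. No gene had ranges that did not overlap, against 8.04% of all genes.

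Among the Egr genes, Egr1 (a zinc finger activator that is also induced by growth factors) had the lowest p. Its 4 WT libraries had 469, 468, 353 and 483 CPM and its 5xFAD libraries 110.0, 179, 192 and 409.8 CPM. All but 1 of the 5xFAD libraries lay below every WT library, and replicate 4 lay inside the WT range. The log2 fold change was -0.99 (95% CI -1.83 to -0.16, FDR 0.349) with an unadjusted p of 0.0231. Egr2, a factor known from myelination and from macrophage differentiation, went from 31.3 ± 18.7 to 37.8 ± 12.1 CPM (SD, n = 4), with a log2 fold change of 0.27 (95% CI -0.75 to 1.30, FDR 0.88). Egr3, an inducible relative of Egr1, had -0.80 (95% CI -1.88 to 0.28, FDR 0.61).

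In the Fos family, Fosb had 60.4, 7.36, 14.5 and 25.7 CPM in WT and 13.95, 7.81, 16.01 and 11.2 CPM in 5xFAD. The WT libraries spanned 8.20-fold and contained the whole 5xFAD range. The log2 fold change of -1.13 (95% CI -2.44 to 0.17, FDR 0.536) was the most negative of the 10 genes, and without WT replicate 1, the highest library, it was -0.38. Fosl2, which encodes the Fos relative Fra-2, had 19.9, 8.13, 10.1 and 17.3 CPM in WT and 10.5, 7.40, 6.12 and 6.81 CPM in 5xFAD, which gave -0.84 (95% CI -2.10 to 0.41, FDR 0.643) on the log2 scale. Fos itself had -0.32 (95% CI -1.14 to 0.50, FDR 0.816).

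For the Jun family, the partners of Fos proteins, the intervals all included 0. Jun had -0.45 (95% CI -1.40 to 0.49, FDR 0.763), Junb -0.27 (95% CI -1.41 to 0.87, FDR 0.893) and Jund -0.35 (95% CI -1.75 to 1.06, FDR 0.889). All 3 were lowest in 5xFAD replicate 1 and highest in 5xFAD replicate 4 within that genotype. Atf3, a stress-induced repressor and activator, had 0.37 (95% CI -0.79 to 1.54, FDR 0.851).

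Libraries with the same replicate number deviated together in the transgene comparisons, so the number was also fitted as a block within each Card9 genotype. In that fit Egr1 fell by 1.15 (FDR 0.0521) and Fosl2 fell by 0.79 (FDR 0.0995) on the log2 scale in 5xFAD against WT. It called 2 of the 10 genes and 16% of all genes. Jund had -0.56 (FDR 0.114) and Jun -0.67 (FDR 0.175), and did not pass. With 1 surrogate variable in place of the block the same 2 genes were called (Egr1 -1.04, FDR 0.0533, and Fosl2 -0.93, FDR 0.0701), with 14% of all genes. The block within each Card9 genotype was chosen after the data were seen.

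**Figure D2:**
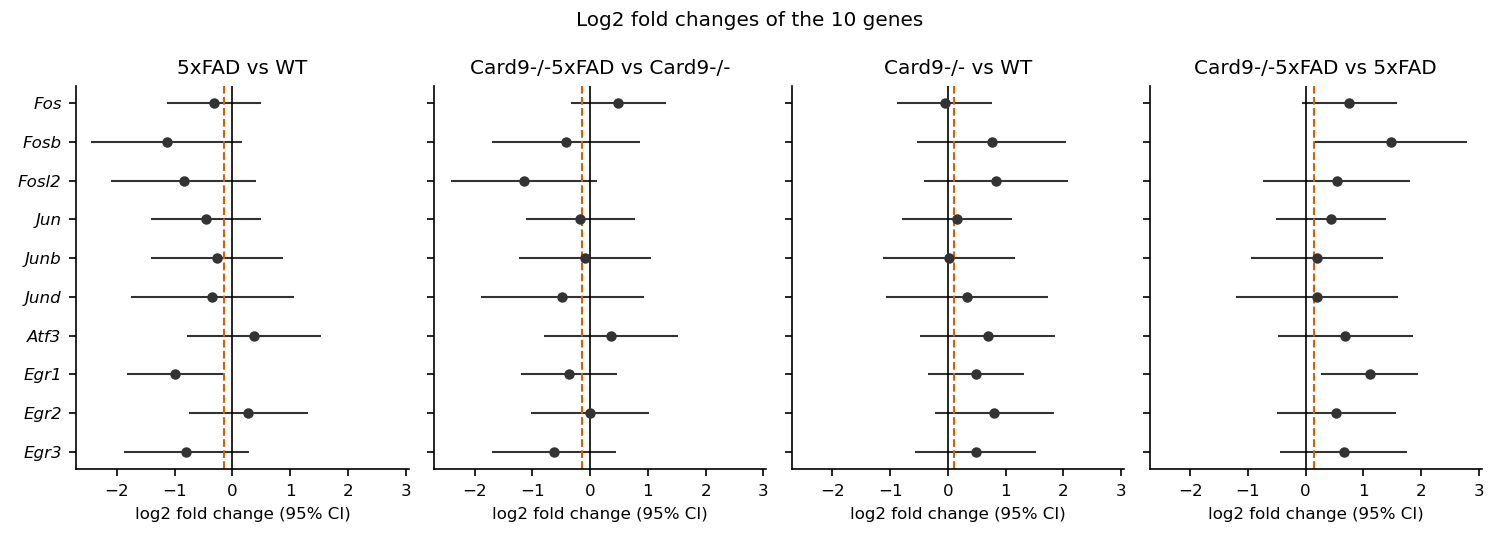
Log2 fold change with its 95% confidence interval for each gene in the 4 comparisons between genotypes, from edgeR on all 16 libraries. The dashed line is the median of all genes tested, which lies at -0.15, -0.15, 0.11 and 0.14 from left to right.

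In Card9-/-5xFAD against Card9-/-, the same question was asked without Card9. None of the 10 genes passed in edgeR or DESeq2, where edgeR called 1.97% of all genes and DESeq2 812 genes, and 0 of 10 had an unadjusted p under 0.05, against 12.2%. Values below 0 were found for 7 of 10 genes, against 60.6% of all genes, with a median of -0.26 against -0.15. No gene had ranges that did not overlap, against 7.01% of all genes.

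Fosl2 had the most negative value. Its Card9-/- libraries had 12.4, 12.2, 8.18 and 68.0 CPM and its Card9-/-5xFAD libraries 6.81, 8.21, 8.69 and 22.03 CPM. Replicate 4 stood above the others in both genotypes. Its log2 fold change was -1.14 (95% CI -2.41 to 0.12, FDR 0.467), and without Card9-/- replicate 4 it was 0.02. With the replicate block within each Card9 genotype Fosl2 fell by 0.75 (FDR 0.0989), the 1 gene of 10 called, where 20.4% of all genes were, and with 1 surrogate variable it was again the 1 gene called (-0.90, FDR 0.0655), with 17.1% of all genes.

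Atf3 depended on the same library. It had 239, 223, 341 and 1668 CPM in Card9-/- and 653, 597, 1189 and 738 CPM in Card9-/-5xFAD. Card9-/- replicate 4 was above every other library of the series, and the other 3 Card9-/- libraries lay below all 4 Card9-/-5xFAD libraries. For Atf3 the log2 fold change was 0.36 (95% CI -0.80 to 1.53, FDR 0.839), and without Card9-/- replicate 4 Atf3 rose by 1.57 (FDR 0.0462), where 4.84% of all genes were called.

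Egr2 followed the same course, with 28.8, 29.8, 34.1 and 127 CPM in Card9-/- and 73.1, 61.5, 40.3 and 43.3 CPM in Card9-/-5xFAD. Apart from replicate 4, the Card9-/- libraries were below those of Card9-/-5xFAD. The log2 fold change was 0.0020 over all libraries (95% CI -1.02 to 1.03, FDR 0.999) and 0.82 without Card9-/- replicate 4. Fos had 985, 1012, 1028 and 1432 CPM in Card9-/- and 1385, 1756, 2479 and 642 CPM in Card9-/-5xFAD. In Card9-/-5xFAD, 3 libraries were above 3 of the Card9-/- libraries, while Card9-/-5xFAD replicate 4 was the lowest of the 8. Its log2 fold change was 0.49 (95% CI -0.33 to 1.31, FDR 0.666).

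The remaining genes gave no call. Log2 fold changes were -0.42 (95% CI -1.70 to 0.86, FDR 0.831) for Fosb, -0.36 (95% CI -1.19 to 0.47, FDR 0.777) for Egr1 and -0.63 (95% CI -1.69 to 0.44, FDR 0.674) for Egr3. Of the Jun family, Jun had -0.17, Junb -0.09 and Jund -0.48, with FDR values of 0.824 to 0.966.

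When the library of lowest microglia marker sum was left out of each genotype, a choice made after the data were seen, the calls differed. In 5xFAD against WT, Egr2 rose by 0.90 (FDR 0.0875), 1 of 10 genes where 7.97% of all genes were called. In Card9-/-5xFAD against Card9-/-, Atf3 rose by 1.63 (FDR 0.00882), Egr2 by 0.94 (FDR 0.0489) and Fos by 0.92 (FDR 0.0522), 3 of 10 genes where 16.7% of all genes were called. Neither Egr1 nor Fosl2 passed in this fit for 5xFAD against WT (Egr1 -0.71, FDR 0.179, and Fosl2 -0.77, FDR 0.173), nor did Fosl2 for Card9-/-5xFAD against Card9-/- (-0.44, FDR 0.368). These 4 libraries also differed in depth, with 5346747 reads counted on genes in WT replicate 1 and 3229322 in Card9-/- replicate 4. There were 7188423 in 5xFAD replicate 1 and 2970148 in Card9-/-5xFAD replicate 4. Except in 5xFAD, these were the lowest totals of their genotypes. Which property of these 4 libraries moves with the genes was not tested.

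**Figure D3:**
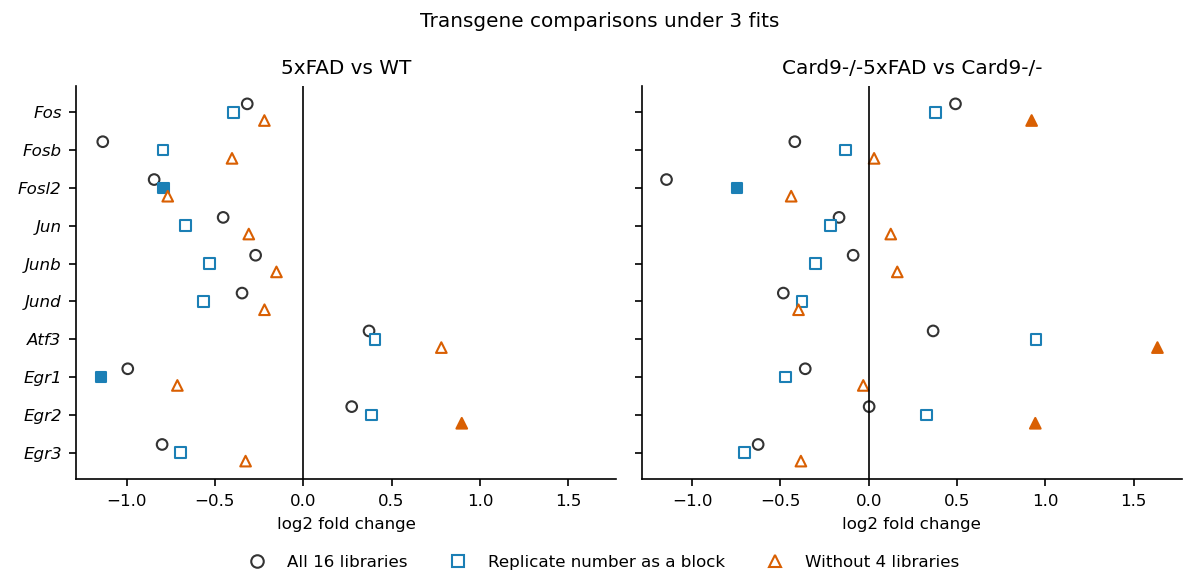
Log2 fold changes of the 10 genes in both transgene comparisons from the fit of all 16 libraries (circles), the fit with the replicate number as a block within each Card9 genotype (squares) and the fit without the 4 libraries of lowest microglia marker sum (triangles). Filled symbols passed an FDR of 0.1, which are Fosl2 and Egr1 with the block and Egr2, Fos and Atf3 without the 4 libraries.

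The Card9 comparisons ask how the genes differ between mice with and without Card9. In Card9-/- against WT, edgeR called 0 of the 10 genes and 0% of all genes, with 0 of 10 and 4.11% of all genes at an unadjusted p under 0.05. DESeq2 called 0 of the 10, and 5 of all genes on all libraries and 8 on those of WT and Card9-/- alone. Values above 0 were found for 9 of 10 genes, against 59.5% of all genes, and the median was 0.48 against 0.11.

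Egr1 was the 1 gene of 10 whose ranges did not overlap, higher in Card9-/-, which held for 1.06% of all genes in that direction. The WT libraries had 469, 468, 353 and 483 CPM and the Card9-/- libraries 677, 570.0, 555 and 672 CPM. Every Card9-/- library was above every WT library, yet the log2 fold change of 0.48 (95% CI -0.35 to 1.31, FDR 0.97) did not pass. For Fosl2, Egr2 and Atf3 the log2 fold changes were 0.84, 0.80 and 0.69, and without Card9-/- replicate 4 they were -0.34, -0.01 and -0.51. Fosb had 0.76 (95% CI -0.53 to 2.04, FDR 0.97) and Egr3 0.49 (95% CI -0.56 to 1.53, FDR 0.97). Fos, Jun, Junb and Jund had values between -0.06 and 0.33.

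In Card9-/-5xFAD against 5xFAD, the comparison at the centre of the study, edgeR called 0 of the 10 genes and 0% of all genes, and DESeq2 called 0 of the 10. Over all genes DESeq2 called 2 on all libraries and 9 on those of these genotypes alone. At an unadjusted p under 0.05 stood 2 of 10 genes, Egr1 and Fosb, against 2.52% of all genes. All 10 of 10 genes had a log2 fold change above 0, against 62% of all genes, with a median of 0.60 against 0.14. This comparison shares the 5xFAD libraries with 5xFAD against WT, in which most of these genes were below 0.

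Egr1 had 110.0, 179, 192 and 409.8 CPM in 5xFAD and 585, 659.7, 487 and 195 CPM in Card9-/-5xFAD. In Card9-/-5xFAD, 3 libraries were above all 5xFAD libraries, and replicate 4 was among the 5xFAD values. The log2 fold change was 1.11 (95% CI 0.27 to 1.95, FDR 0.993) with an unadjusted p of 0.0125, and without the 4 libraries of lowest microglia marker sum it was 1.15 (FDR 0.884).

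Fosb was the 1 gene of 10 whose ranges did not overlap, higher in Card9-/-5xFAD, as for 0.972% of all genes in that direction. Its 5xFAD libraries had 13.95, 7.81, 16.01 and 11.2 CPM and its Card9-/-5xFAD libraries 26.5, 21.5, 43.3 and 45.3 CPM. The mean was 12.2 ± 3.55 CPM in 5xFAD and 34.1 ± 11.9 CPM in Card9-/-5xFAD (SD, n = 4), and the log2 fold change of 1.48 (95% CI 0.16 to 2.79, FDR 0.993), with an unadjusted p of 0.0304, did not pass.

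Fos had 0.75 (95% CI -0.07 to 1.58, FDR 0.993), with 3 of 4 Card9-/-5xFAD libraries above 3 of 4 5xFAD libraries. Atf3 had 0.68 (95% CI -0.48 to 1.85, FDR 0.993), from 494 ± 135 to 794 ± 269 CPM (SD, n = 4). Egr3 and Egr2 had 0.66 and 0.53, and Fosl2 had 0.54. The Jun family stood closest to 0, at 0.44 for Jun, 0.20 for Junb and 0.20 for Jund, with intervals that reach from -1.21 to 1.60 for Jund.

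The interaction asks whether the response to the transgenes differed with Card9. EdgeR and DESeq2 called 0 of the 10 genes, edgeR called 0% of all genes and DESeq2 1 gene, and 0 of 10 genes had an unadjusted p under 0.05, against 0.537% of all genes. The values ran from -0.30 for Fosl2 to 0.81 (95% CI -0.35 to 1.97, FDR 1.00) for Fos. For Egr1 the difference of the responses was 0.63 (95% CI -0.54 to 1.81, FDR 1.00), so that the lower value in 5xFAD against WT was not shown to differ from that in Card9-/-5xFAD against Card9-/-.

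Most of the variance lay between libraries of the same genotype for 9 of the 10 genes, as it did at the median of all genes. The share of the variance of log2 CPM that lay within genotypes had a median of 75.4% for the 10 genes and 79.2% for all genes. It was 40.7% for Egr1, 64.4% for Egr3 and 64.8% for Fosb, and it reached 91.1% for Junb and 92.2% for Jund. The within-genotype SD of log2 CPM was 1.06 for Jund, 0.97 for Fosb, 0.88 for Junb and 0.84 for Fosl2. It was lowest for Fos (0.56) and Egr1 (0.57), and the median was 0.75 for the 10 genes and 0.62 for all genes.

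Jund, a Jun family member that is expressed at rest in many cells, had 29.8, 35.9, 29.5 and 85.9 CPM in WT and 109, 59.9, 12.7 and 47.1 CPM in Card9-/-. It had 14.9, 18.6, 23.0 and 85.8 CPM in 5xFAD and 68.5, 52.0, 13.6 and 28.4 CPM in Card9-/-5xFAD. Replicate 4 stood high in WT and in 5xFAD, while the Card9-/- libraries spread over 8.52-fold.

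Junb, which often restrains the activity of Jun, had 435, 1213, 933 and 1011 CPM in WT and 189.9, 554, 734 and 1501 CPM in 5xFAD. It had 1144, 801, 904 and 779 CPM in Card9-/- and 1139.7, 1353, 643 and 275 CPM in Card9-/-5xFAD. The lowest value of every genotype came from the library with the lowest microglia marker sum. Jun had 998, 2077, 1861 and 2137 CPM in WT and 2427, 1466, 1718 and 2266 CPM in Card9-/-. The 5xFAD libraries had 361, 1086, 1467 and 2251 CPM of Jun, those of Card9-/-5xFAD had 2073, 2447, 1497 and 992 CPM, and it was lowest in the same libraries except in Card9-/-. Without the 4 libraries the median within-genotype SD of the 10 genes was 0.388. The value of all genes is not given for that setting, so the fall is not shown to be particular to these genes.

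**Figure D4:**
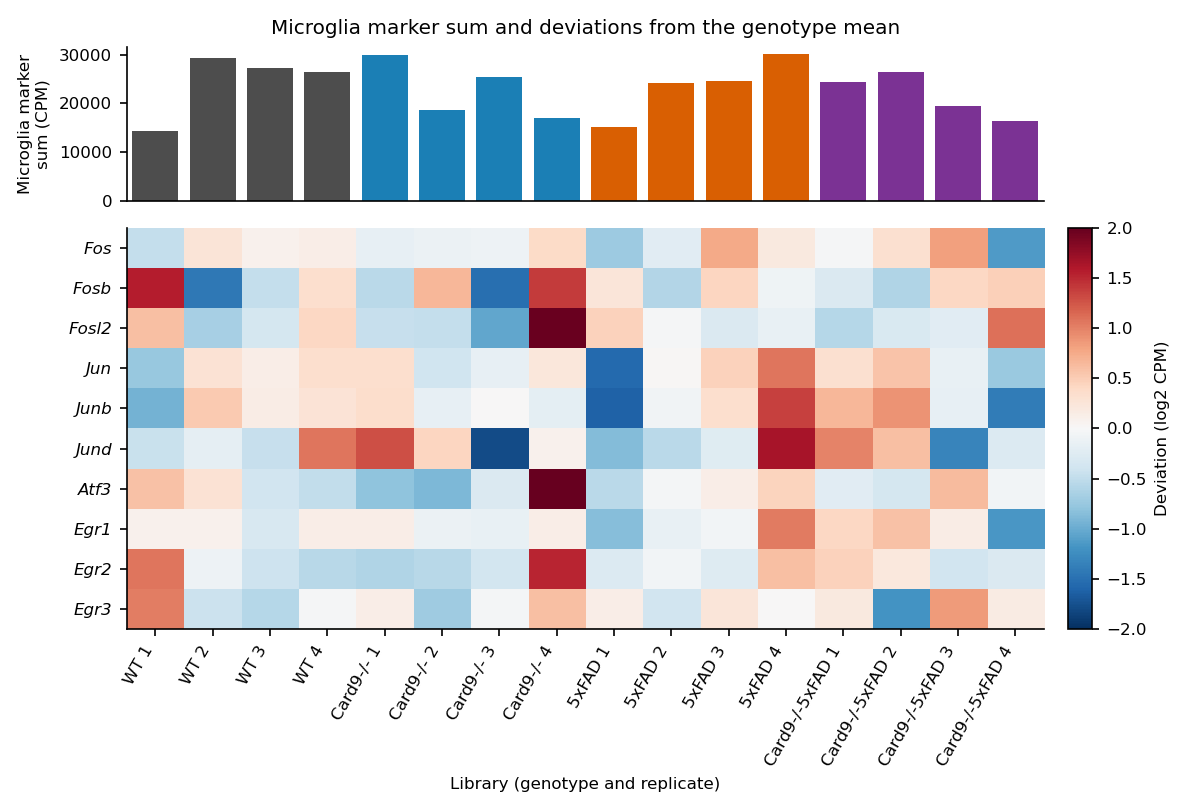
Summed CPM of the 9 microglia markers in each library (bars, coloured by genotype) above the deviation of each gene's log2 CPM from its genotype mean (colours, limited at 2 in either direction). In 5xFAD replicate 1 and Card9-/-5xFAD replicate 4, Jun, Junb and Egr1 are below their genotype means, and in Card9-/- replicate 4, Fosl2, Atf3, Egr2 and Fosb are above theirs.

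Deviations from the genotype mean were correlated over the 16 libraries for all 45 pairs of genes, each with a two-sided permutation test of libraries within genotypes and Benjamini-Hochberg adjustment over the 45 pairs. The 10 genes did not vary as 1 block. Pearson's r passed an adjusted p of 0.05 for 5 pairs and Spearman's rho for 1 of these, and r was negative in 15 of 45 pairs. That test treats the libraries of a genotype as independent of those of the others. Because same-numbered libraries deviated together in the transgene comparisons, an exact test was added that permuted them together within each Card9 genotype (576 orders), and r passed for 2 of the 5 pairs (Jun with Junb, and Junb with Egr1, adjusted exact p = 0.0391 for both) and rho for none. The other 3 pairs had adjusted exact p-values of 0.0586 (Jun with Egr1, and Fosb with Fosl2) and 0.104 (Fosl2 with Junb).

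Jun and Junb, which heterodimerize with the same Fos partners, had the highest correlation (r = 0.95, adjusted permutation p = 0.0036, and rho = 0.89, adjusted permutation p = 0.0144). Without the 2 libraries farthest from the median of Jun, r was 0.92. Egr1 varied with both, with r = 0.86 for Junb (adjusted permutation p = 0.0423, rho = 0.65, adjusted permutation p = 0.0906) and r = 0.79 for Jun (adjusted permutation p = 0.0423, rho = 0.70, adjusted permutation p = 0.0906). Leaving out the 2 farthest libraries gave r = 0.69 and r = 0.86 for these pairs.

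Fosb and Fosl2 had r = 0.74 (adjusted permutation p = 0.0423, rho = 0.66, adjusted permutation p = 0.0906) and r = 0.67 without the 2 farthest libraries. Fosl2 and Junb had a negative r of -0.51 (adjusted permutation p = 0.0423, rho = -0.58, adjusted permutation p = 0.0906), which was -0.51 without them. Fos had r = 0.67 with Jun and with Junb, which did not pass (adjusted permutation p = 0.121 and 0.139). Egr2 and Atf3 had r = 0.79, which did not pass either (adjusted permutation p = 0.121), and r was 0.45 without Card9-/- replicate 4 and WT replicate 1. Depth and microglia marker sums also differed between these libraries, and their part in the correlations was not tested.

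**Figure D5:**
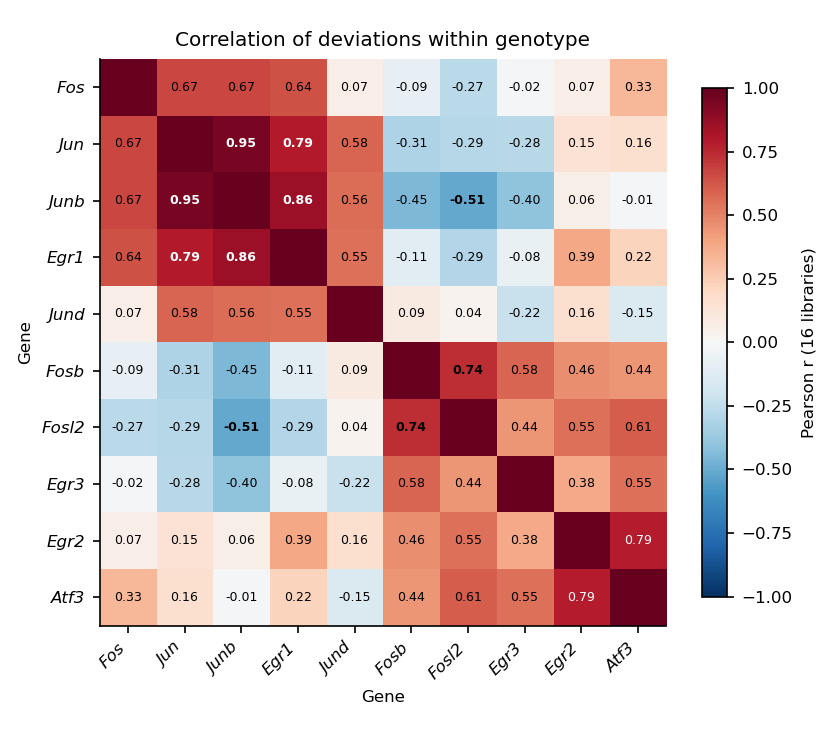
Pearson's r of the deviations from the genotype mean for each pair of genes over 16 libraries, with bold values at an adjusted permutation p under 0.05. Fos, Jun, Junb and Egr1 have r of 0.64 to 0.95 with each other, and Fosb, Fosl2, Egr3, Egr2 and Atf3 have r of 0.38 to 0.79.

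The 10 other genes whose deviations were most like those of the 10 genes, by their mean r over the 16 libraries, were Nes, Marcksl1, Syp, Dusp2, Lrrc75aos2, Tob1, Csrnp1, Ifi202b, Adamts1 and Thap6, with a mean r of 0.446 to 0.494. Dusp2 is a phosphatase of MAP kinases and Csrnp1 an immediate early transcription factor. Adamts1 had the highest level of these, with a mean of 209.7 CPM. This is a description over 14513 genes, with no test.

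Genes of the surrounding pathway were taken from written lists. Among upstream transcription factors, 1 of 10 tested genes rose in 5xFAD against WT and 1 of 10 in Card9-/-5xFAD against Card9-/-, Crem in both, which encodes activators and repressors at the CREB element. Crem had 13.4 ± 1.98 CPM in WT and 35.1 ± 6.48 in 5xFAD (log2 fold change 1.39, SE 0.28, FDR 0.0172), and 9.69 ± 2.81 in Card9-/- and 30.9 ± 10.1 in Card9-/-5xFAD (1.67, SE 0.29, FDR 0.0049; SD, n = 4). Of 2 tested genes among the Egr corepressors and Egr4, Nab2, a corepressor of Egr proteins, rose in Card9-/-5xFAD against Card9-/- from 8.08 ± 1.43 to 18.4 ± 7.37 CPM (log2 fold change 1.20, SE 0.31, FDR 0.0796) and had 1.08 (FDR 0.121) in 5xFAD against WT.

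No other gene of these lists rose in edgeR. Outside the 10 genes, edgeR called none of the 12 tested AP-1 family members and dimer partners in any of the 5 tests. It also called none of the 14 MAP kinases, 8 MAP kinase phosphatases, 22 other immediate early genes or 12 heat shock genes. Klf4, of the other immediate early genes, had 20.6 ± 8.39 CPM in 5xFAD and 64.0 ± 7.74 CPM in Card9-/-5xFAD (SD, n = 4). Between these genotypes the authors report higher Klf4 without Card9, by their RNA sequencing and by qPCR. Of 13 cytokines and chemokines, Ptgs2, an immediate early enzyme of prostaglandin synthesis, fell in 5xFAD against WT by 1.44 on the log2 scale (FDR 0.0993) from 4.31 ± 1.54 to 1.57 ± 0.545 CPM (SD, n = 4).

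The other immediate early genes lay on the same side as the 10 genes in Card9-/-5xFAD against 5xFAD, with 21 of 22 above 0 and a median log2 fold change of 0.49. There, 8 of 8 MAP kinase phosphatases (median 0.42) and 11 of 12 heat shock genes (median 0.43) were also above 0, against 62% of all genes with a median of 0.14. In 5xFAD against WT, 15 of 22 other immediate early genes were below 0 (median -0.48) and so were 7 of 8 phosphatases (median -0.42), 13 of 14 MAP kinases (median -0.39) and 9 of 12 heat shock genes (median -0.34), against 61.1% of all genes. Of the 9 lists of cell type markers, Gfap, of astrocytes, rose and Mrc1, of border-associated macrophages, fell in both transgene comparisons (log2 fold changes 4.32 and 2.81 for Gfap, and -1.20 and -1.28 for Mrc1). Gfap was at low levels, with means of 0.480 CPM in WT, 1.23 in Card9-/-, 10.3 in 5xFAD and 8.74 in Card9-/-5xFAD. In each transgene comparison, 3 of the 6 astrocyte markers were above 0 and 3 below. Pecam1, of endothelial cells, and Lyve1, of border-associated macrophages, fell in 5xFAD against WT (-1.55 and -1.28), no other marker was called, and their part in the values of the 10 genes was not tested. The counts of genes above or below 0 are descriptions, and none of the genes of those 4 lists passed in either comparison by edgeR.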

How the data were processed

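The members and gene lists were chosen with earlier results of these data known. Per the paper's methods and the labels, the authors used HISAT2 to align reads to mm10, SAMtools to filter the alignments, and HTSeq to count reads per gene. The authors deposited whole-number read counts per gene symbol for all 16 libraries, without normalization. The strand setting and tool settings are not given in the sources used here. The authors tested with DESeq2. Counting on genes and the sort set which RNA is measured, and totals per library ran from 2970148 to 19333325, so that a gene with few counts, such as Egr3, is imprecise in shallow libraries.

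Differential expression was computed in R 4.3.3 with edgeR 4.0.16 (quasi-likelihood test in its earlier, legacy form, 1 fit of all 16 libraries, TMM, filterByExpr with a minimum count of 10). For each contrast, Benjamini-Hochberg adjustment ran over 14513 genes, with a threshold of 0.1 (FDR). The SE and the 95% interval were derived from the F statistic and the log2 fold change. CPM uses TMM library sizes, and log2 CPM adds a prior count of 2. Correlations used 100000 permutations of libraries within genotypes, with a threshold of 0.05, and an exact test that kept same-numbered libraries together within each Card9 genotype. The labels do not say that each library is a separate mouse, so p-values measure the spread between these libraries. No 2 libraries of a genotype were copies (a chi-square test of their counts gave at least 6.92 per degree of freedom in 24 pairs).

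The labels number the libraries of each genotype from 1 to 4. Deviations of all genes from the genotype means correlated between same-numbered libraries in both transgene comparisons (r = 0.128 to 0.734). In the Card9 comparisons r ran from -0.637 to 0.488. These values are over 14513 genes, which are not independent replicates. The labels do not say what the numbers mark. The library of lowest microglia marker sum was replicate 1 in WT and 5xFAD and replicate 4 in Card9-/- and Card9-/-5xFAD. The part of these libraries in the correlations was not tested. All 10 members were named in every comparison, with passing genes of each list (up to 3 per direction) and the 10 most similar genes. The edgeR fit of 5xFAD against WT and the correlation test were tested on simulated data. Alternatives were DESeq2 1.42.0 on all libraries or on the groups compared, DESeq2 size factors, other filters, edgeR on the groups compared, 1 surrogate variable (sva 3.50.0), a block on the replicate number and leaving out each library. The block within each Card9 genotype, the fit without the 4 libraries of lowest microglia marker sum, the fit without the legacy form and the exact correlation test were added after the data were seen. Positions are from GENCODE M21 and promoters from RefSeq, both on GRCm38. Reads were not analysed here.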

Additional observations from a re-analysis of the deposited data

Results flagged for a closer look

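A sample far from the other 3 of its genotype was found in 8 of 40 sets of 4 libraries (10 genes in 4 genotypes). Chance gives about 1 in 20 in this test, or 2 of 40, if the sets are independent and the values normally distributed. The test used CPM without logs, and some of the genes vary together, so that rate is only a guide. The share over all genes is not given, so the count is not shown to be particular to these genes. In Card9-/- replicate 4, Fos had 1431.5 CPM (others 985 to 1028), Fosl2 68.0 (8.18 to 12.4), Egr2 127 (28.8 to 34.1) and Atf3 1668 (223 to 341). Fosl2 was also high in Card9-/-5xFAD replicate 4, with 22.03 CPM against 6.81 to 8.69. Jund had 85.9 CPM in WT replicate 4 (others 29.5 to 35.9) and 85.8 CPM in 5xFAD replicate 4 (others 14.9 to 23.0). Egr1 had 353 CPM in WT replicate 3, below the others at 468 to 483.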

How the results depend on the processing

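The fit of all 16 libraries called 0 of the 10 genes in each of 5 tests, as did DESeq2 on all libraries, both other filters, DESeq2 size factors, edgeR without the legacy setting and the replicate block over all 16 libraries. DESeq2 and edgeR on the compared groups alone called 0 in the 4 tests they can give, without the interaction. With 1 surrogate variable, 2 genes were called in 5xFAD against WT (Fosl2 -0.93, FDR 0.0701, and Egr1 -1.04, FDR 0.0533) and 1 in Card9-/-5xFAD against Card9-/- (Fosl2 -0.90, FDR 0.0655), where 2029 and 2479 of all genes were called. The replicate block within each Card9 genotype called 2 and 1 genes, with 2322 and 2966 of all genes against 304 and 286 without it, and leaving out the 4 libraries of lowest microglia marker sum called 1 and 3 genes, with 1144 and 2394 of all genes. DESeq2 called 565 and 812 of all genes on all libraries and 669 and 433 when fitted to the compared groups alone, where edgeR called 294 and 96, while edgeR with at least 10 counts in every library called 171 and 148 and with no filter 208 and 185. The cause of these differences was not tested. Leaving out 1 library gave 0 to 1 genes, the 1 being Atf3 in Card9-/-5xFAD against Card9-/- without Card9-/- replicate 4, and 164 (without WT replicate 4) to 386 (without Card9-/- replicate 4) of all genes in 5xFAD against WT and 120 (without Card9-/- replicate 2) to 720 (without Card9-/- replicate 4) in Card9-/-5xFAD against Card9-/-. With DESeq2 size factors 5 pairs of genes passed as correlated, as in the main setting, and 2 did when same-numbered libraries were permuted together. The median within-genotype SD of the 10 genes was 0.75 over all libraries, 0.388 without the 4 libraries and 0.618 to 0.781 with 1 library left out. That of all genes is given over all libraries only (0.62). Same-numbered libraries did not deviate together throughout the Card9 comparisons. There, the block over all 16 libraries called 0 of the 10 genes and 0 of all genes. Leaving out 1 library at a time changed the sign of 25 of these values, none of them past the threshold with the new sign. In Card9-/- against WT Jun -0.046 to 0.26, Junb -0.22 to 0.19, Fos -0.20 to 0.027, Jund -0.19 to 0.85, Fosl2 -0.34 to 1.12, Egr2 -0.011 to 1.29 and Atf3 -0.51 to 0.95. In the interaction Fosb -0.041 to 1.29, Jund -0.65 to 0.69, Egr3 -0.32 to 0.47, Atf3 -0.28 to 1.19, Fosl2 -0.79 to 0.87, Egr2 -0.76 to 0.54, Jun -0.023 to 0.65 and Junb -0.14 to 0.73. In 5xFAD against WT Jund -1.04 to 0.17 and Junb -0.67 to 0.053. In Card9-/-5xFAD against Card9-/- Junb -0.40 to 0.21, Jund -0.86 to 0.039, Egr2 -0.20 to 0.82, Fosb -0.74 to 0.15, Fosl2 -1.63 to 0.023 and Jun -0.37 to 0.033. In Card9-/-5xFAD against 5xFAD Junb -0.13 to 0.60 and Jund -0.19 to 0.91. Values with the opposite sign under other settings, none of them past the threshold, were as follows. With DESeq2 size factors in edgeR Junb -0.045 (Card9-/- against WT). With no filter on low counts Junb -0.0074 (Card9-/- against WT) and Atf3 0.056 (interaction). With at least 10 counts in every library Junb 0.014 (Card9-/-5xFAD against Card9-/-), Junb -0.099 (Card9-/- against WT) and Atf3 0.047 (interaction). With DESeq2 on all libraries Junb -0.051 (Card9-/- against WT). With DESeq2 on only the groups compared Junb -0.053 (Card9-/- against WT). With edgeR on only the groups compared Egr2 -0.016 (Card9-/-5xFAD against Card9-/-). With the replicate block over all 16 libraries Jund 0.0029 and Atf3 0.48 (interaction). With 1 surrogate variable Fosl2 0.029, Junb -0.026 and Atf3 0.31 (interaction). Without the 4 libraries of lowest microglia marker sum Fosb 0.030, Jun 0.12 and Junb 0.16 (Card9-/-5xFAD against Card9-/-), Fosl2 -0.12, Jun -0.11, Junb -0.15 and Atf3 -0.29 (Card9-/- against WT) and Fosl2 0.33, Egr2 0.045, Egr3 -0.058 and Atf3 0.85 (interaction). With the replicate block within each Card9 genotype Fosl2 0.044, Jund 0.18, Egr3 -0.0091 and Atf3 0.54 (interaction).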
